A study of Mus musculus with 703 samples.

Results

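Mettl21e and Mettl21c are a pair of muscle methyltransferase genes, and they are described here over the gastrocnemius libraries of 352 female and 351 male mice, 1 library per mouse. They are 2 of the 19088 genes in the count table and were found there by symbol. Mettl21e was chosen by its metformin difference in these same libraries, the largest fall among the named genes, and Mettl21c was added as its close relative. The metformin values of Mettl21e below are therefore a description and carry no test. Those of Mettl21c were tested only for their differences between sexes, diets and identifier ranges. Both genes passed the filter on low counts in every comparison.

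The METTL21 proteins belong to a family of enzymes that place methyl groups on lysine residues of other proteins, with S-adenosylmethionine as the methyl donor. Mettl21c and Mettl21e are the members known for their expression in skeletal muscle. Mettl21c has been reported to act on the chaperone-like ATPase VCP and on alanyl-tRNA synthetase, and Mettl21e has been linked to the control of muscle fibre size. The human counterpart of Mettl21e is a pseudogene.

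The mice were CC-RIX animals of 20 strains. Each such strain comes from crossing a pair of inbred Collaborative Cross lines to give F1 animals, and every animal carries the genotype label Outbred. Both sexes ate chow with 10% fat or a high-fat, high-sugar diet with 44% fat, both with added fiber, from 6 weeks of age. Some animals drank metformin, an oral drug for diabetes, at 5 mg/mL in the water from 7 months of age, and the others were untreated. The cohorts were killed at 6 or 12 months, and the labels give no animal's age, so treated animals were from the older cohort while untreated animals could be from either, and metformin and age cannot be told apart. There were 236 untreated females and 233 untreated males, split about evenly over the diets, and each combination of sex and diet held 57 to 59 animals with metformin.

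Total counts per library ran from 27.4 M to 96.1 M with a median of 47.9 M. Actin (Acta1), creatine kinase (Ckm) and titin (Ttn), which define skeletal muscle, were each above 3782 CPM in every library, where CPM is the count of a gene after all libraries are scaled to a common total. Sequencing identifiers on the labels fell into a lower range (400 untreated and 144 metformin libraries) and an upper range (69 and 90), and the range was a term in the main models. In 15 libraries the Xist level was that of the opposite sex, and 4 libraries were closest in profile to a strain other than their own. All were kept. The untreated sex differences are also given without the 15, and the untreated strain F without the 4. The metformin by sex interaction, the counts of strains with non-overlapping sexes and the correlations were not computed without them.

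Both genes lie on the minus strand of chromosome 1 (GRCm38). Mettl21c (ENSMUSG00000047343) runs from 44009408 to 44020034 and Mettl21e (ENSMUSG00000046828) from 44204070 to 44218961, with 184 kb and 6 annotated genes between them. An antisense gene overlaps each of them, Gm15833 at Mettl21e and Gm15838 at Mettl21c. Whether counting used strand is not stated, so reads of a gene and its antisense partner cannot be told apart. Gm15833 had a mean of 0.417 CPM, 4.34% of the Mettl21e mean.

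Every library held reads of both genes. Mettl21e counts ran from 15 to 2568 with a median of 385, or 0.308, 8.06 and 40.9 CPM at the lowest, median and highest animal. Mettl21c counts ran from 373 to 7174 with a median of 1362, or 8.26, 26.9 and 124 CPM. Mettl21e therefore spanned a much wider range of levels than its relative. Per kilobase of merged exon (3.961 kb for Mettl21e and 4.3 kb for Mettl21c), the median levels were 2.03 and 6.26 CPM. Mettl21c was the higher of them per kilobase in 629 animals, with a median ratio of 3.99. The ratio differed by sex, with a median of 1.56 in females and 8.01 in males. In males Mettl21c was the higher gene in 350 of 351 animals, and in females in 279 of 352.

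**Figure D1:**
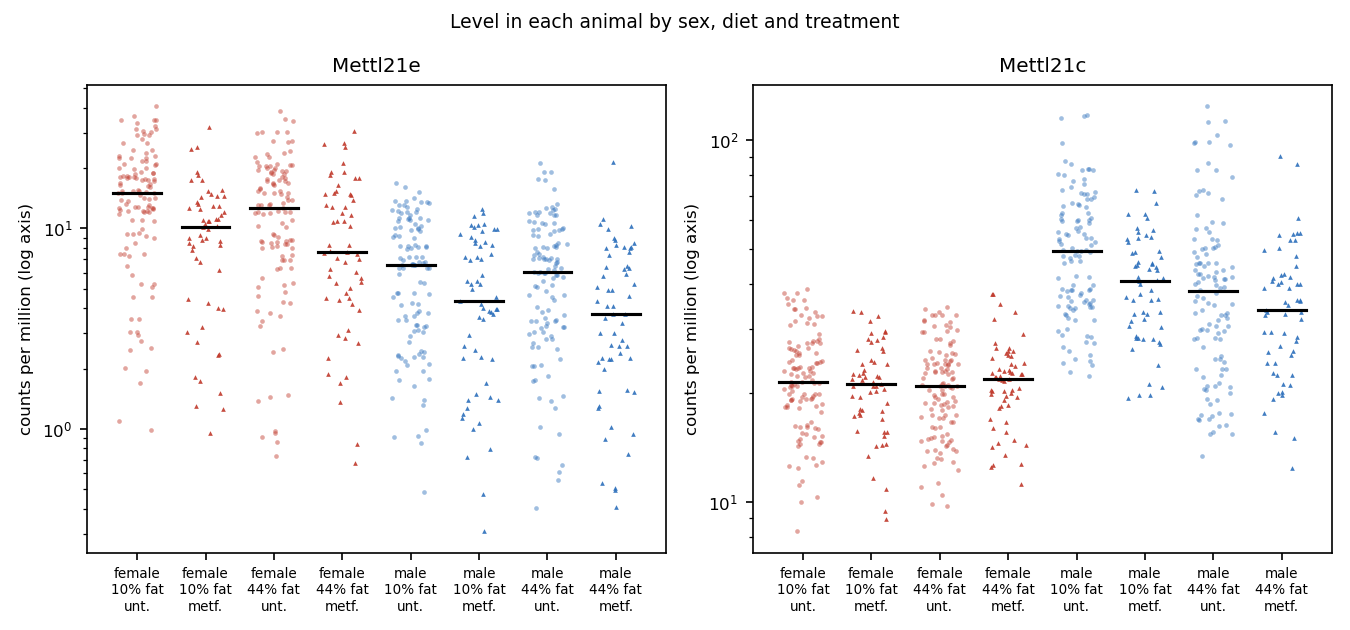
Level of Mettl21e (left) and Mettl21c (right) in each animal, in CPM on a log axis, for the 8 groups of sex, diet and treatment. Red points are females and blue points are males, circles are untreated animals and triangles are animals given metformin, and black lines are medians. Untreated females on 10% fat had a median Mettl21e level of 15.1 CPM against 6.55 CPM in untreated males on that diet, and the order was turned for Mettl21c (21.4 and 49.3 CPM).

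The sexes differed in opposite directions at the 2 genes. In untreated females, Mettl21e was 0.736 CPM in the lowest, 13.9 in the median and 40.9 in the highest animal. In untreated males these values were 0.405, 6.34 and 21.2 CPM. For Mettl21c they were 8.26, 21.1 and 38.6 CPM in untreated females and 13.3, 41.7 and 124 CPM in untreated males. The sexes overlapped at both genes when strains were pooled, and the highest female Mettl21c level lay below the male median. Mettl21e was lower in males by a log2 difference of -1.09 ± 0.05 (SE), or -53.1% on the linear scale, with an edgeR quasi-likelihood adjusted p of 6.9e-71. Mettl21c was 2.11-fold higher in males, a log2 difference of 1.08 ± 0.05 (SE, edgeR adjusted p of 7.8e-78). Sex was a broad effect in this tissue, since 65.2% of 16384 genes passed the test (35.7% lower and 29.5% higher in males), and the median over all genes was -0.02. In bulk tissue, fewer fibres of a type and less RNA per fibre cannot be told apart.

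The sex difference was seen strain by strain. Mettl21e was lower in males in 20 of 20 strains, by log2 differences of mean level from -1.89 to -0.11 with a median of -1.11. Mettl21c was higher in males in 20 of 20 strains, by 0.34 to 1.60 with a median of 1.095. The widest sex gap at both genes was in (CC051/TauUncJ x CC059/TauUncJ)F1. There the untreated females held 7.98, 12.3 and 18.6 CPM of Mettl21e at the lowest, median and highest, and the males 1.28, 3.26 and 6.79 CPM, with no overlap. For Mettl21c the same females held 9.72, 18.8 and 25.5 CPM and the males 30.9, 50.4 and 80.7 CPM, again with no overlap. The narrowest gap at Mettl21e was in (CC002/UncJ x CC075/UncJ)F1, where females held 0.736, 1.04 and 3.53 CPM and males 0.405, 1.53 and 2.89 CPM, which overlap almost entirely. All females lay above all males for Mettl21e in 5 strains, and all males above all females for Mettl21c in 5 strains. Over all genes, 1.05% of gene and strain pairs had sexes that did not overlap.

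In animals given metformin, males were again lower in Mettl21e (-1.04 ± 0.08 SE, edgeR adjusted p of 8.7e-29) and higher in Mettl21c (0.80 ± 0.05 SE, edgeR adjusted p of 1.4e-33), where 51% of 16418 genes passed (27.8% lower and 23.2% higher in males). Both directions held in 20 of 20 strains there. Without the 15 libraries whose Xist level went against the label, the untreated differences were -1.10 at Mettl21e and 1.09 at Mettl21c. The 13 slow-fibre genes of a fixed list also moved with sex in untreated animals. Of them 12 were lower in males (35.7% of all genes were), with a median of -0.57. Over all animals their summed level ran from 1154 to 4868 CPM (median 2523) in females and from 590 to 2926 CPM (median 1620) in males. With that sum in the model the sex differences were -0.96 at Mettl21e and 0.90 at Mettl21c. Adipocyte markers were lower in males for 5 of 6 genes, against 35.7% of all genes. Their summed levels over all animals were 11.7 to 489 CPM (median 108.1) in females and 8.06 to 798 CPM (median 65.6) in males. With the adipocyte sum in the model the differences were -1.07 and 1.04. Beyond these fits, their part in the sex difference was not tested.

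**Figure D2:**
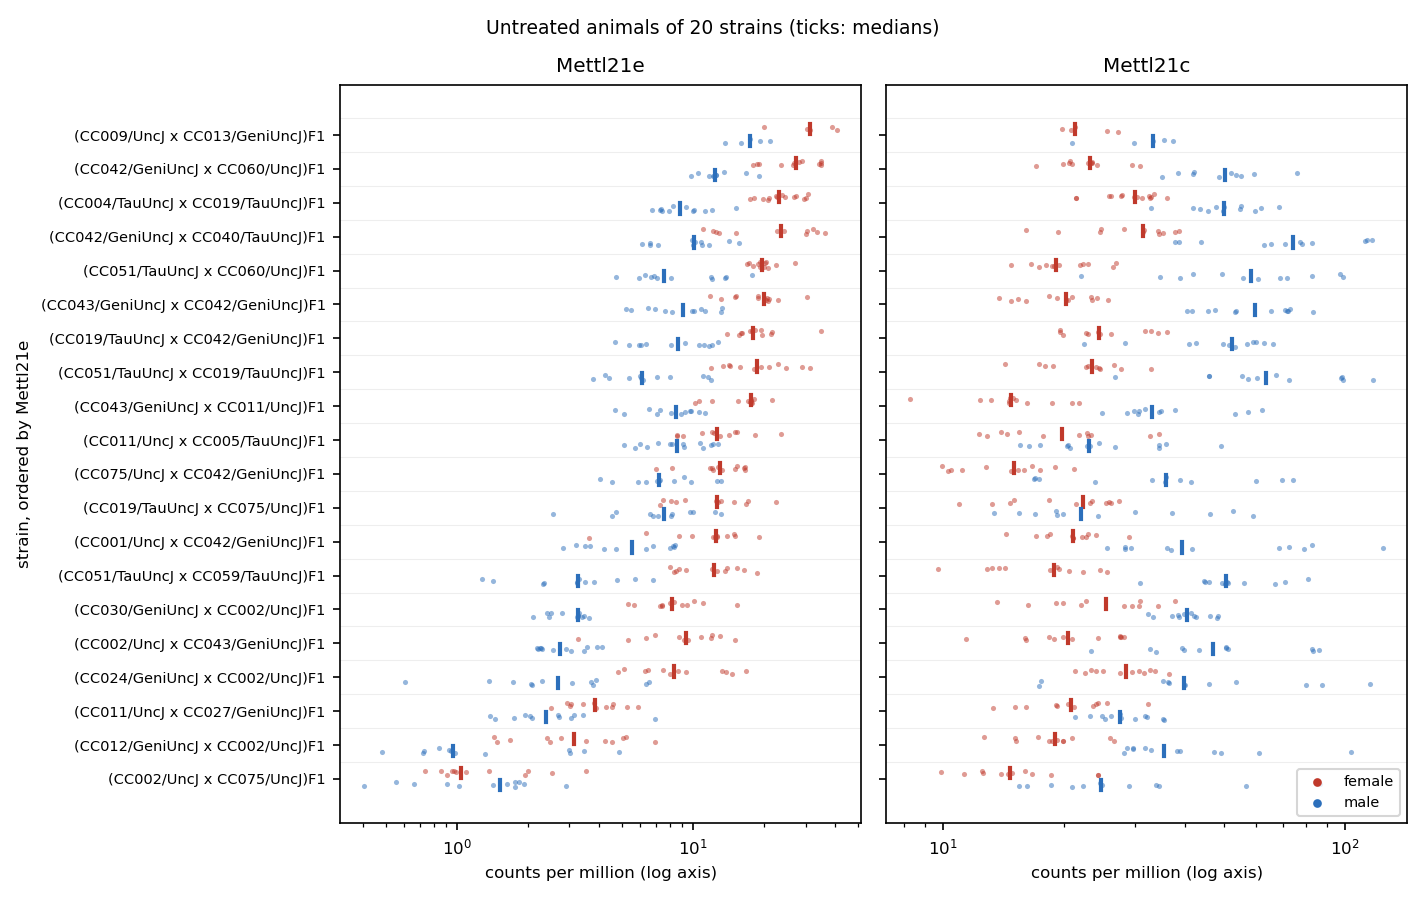
Untreated animals of the 20 strains, with Mettl21e on the left and Mettl21c on the right in CPM on log axes, and with strains ordered by Mettl21e from the lowest at the bottom. Each point is an animal, red for females and blue for males, and ticks are medians by sex. Strain means of Mettl21e run from 1.45 CPM at the bottom to 24.9 CPM at the top, while those of Mettl21c run from 23.3 to 52.3 CPM in a different order.

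Strain took a far larger share of the variance of Mettl21e than of Mettl21c. In untreated animals, strain took 59.4% of the variance of Mettl21e (omega squared on log2 CPM), sex 18.5%, identifier range 0.790% and diet 0.547%. For Mettl21c, sex took 44.2%, strain 15.01%, diet 1.85% and identifier range 0.0507%. Both genes differed between strains (edgeR F of 64.6 with adjusted p of 5.1e-114 for Mettl21e, F of 9.22 with adjusted p of 4.6e-22 for Mettl21c). Strain differences were the rule, with 93.2% of 16384 genes passing. In animals given metformin the F was 22 for Mettl21e (edgeR adjusted p of 3.0e-39) and 5.95 for Mettl21c (edgeR adjusted p of 1.7e-11), with 85.8% of genes passing. In untreated animals without the 4 libraries closest to another strain, F was 68.4 and 11.04.

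The lowest Mettl21e levels were in (CC002/UncJ x CC075/UncJ)F1, with 0.405, 1.23 and 3.53 CPM at the lowest, median and highest of 24 animals. (CC009/UncJ x CC013/GeniUncJ)F1 held the highest, 13.7, 20.6 and 40.9 CPM over 10 animals, all of them in the upper identifier range. These strains did not overlap, and their means of 1.45 ± 0.773 and 24.9 ± 9.72 CPM (SD) differed 17.2-fold. Next to the top stood (CC042/GeniUncJ x CC060/UncJ)F1 at 20.9 ± 8.86 CPM (SD, n = 22), and next to the bottom (CC012/GeniUncJ x CC002/UncJ)F1 at 2.63 ± 1.78 CPM (SD, n = 24). Between neighbours in the order the steps were small. In 18 of 19 steps, the difference of sex-balanced means on the log2 scale was within the spread of animals (1 SD within sex). The exception was the step from (CC004/TauUncJ x CC019/TauUncJ)F1 to (CC042/GeniUncJ x CC060/UncJ)F1.

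Strains with CC002/UncJ as a parent filled the low end of Mettl21e. The 5 such strains held ranks 1, 2, 4, 5 and 6 of 20 from the bottom, with means from 1.45 to 6.34 CPM. The strain at rank 3 was (CC011/UncJ x CC027/GeniUncJ)F1 (3.32 ± 1.39 CPM, SD, n = 24). The 6 strains that carry CC042/GeniUncJ held ranks from 8 to 19, and the 2 with CC060/UncJ held ranks 16 and 19. These ranks were noticed after the order was known and were given no test.

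For Mettl21c the same CC002/UncJ strains were spread over ranks 1, 8, 10, 12 and 16. Ranks of both genes were set by sex-balanced means of log2 CPM, and the means that follow are of CPM. By these the lowest was 23.3 ± 8.84 CPM (SD, n = 26) in (CC011/UncJ x CC005/TauUncJ)F1, with 12.2, 22.3 and 49.1 CPM at the lowest, median and highest animal. The highest mean was 52.3 ± 30.6 CPM (SD, n = 24) in (CC042/GeniUncJ x CC040/TauUncJ)F1, with 16.1, 38.2 and 116.9 CPM. These strains overlapped, with a ratio of means of 2.24. All 19 steps between neighbouring strains were within the spread of animals. In the males of (CC042/GeniUncJ x CC040/TauUncJ)F1 alone, Mettl21c was 37.8, 73.99 and 116.9 CPM, against 16.1, 31.5 and 38.6 CPM in its females, so the sexes overlapped only at the edge. Across the 20 strain means, r between the genes was 0.39, as a description.

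Mettl21e and Mettl21c were both lower on 44% fat, by small amounts. Untreated animals on 10% fat held 0.483, 10.1 and 40.9 CPM of Mettl21e at the lowest, median and highest, and those on 44% fat 0.405, 8.19 and 38.6 CPM. For Mettl21c the values were 8.26, 30.8 and 117.4 CPM on 10% fat and 9.72, 24.7 and 124 CPM on 44% fat. The diets overlapped over nearly the whole range. The log2 difference was -0.17 ± 0.05 (SE, edgeR adjusted p of 0.0058) for Mettl21e and -0.18 ± 0.05 (SE, edgeR adjusted p of 0.0012) for Mettl21c. Diet changed 18.4% of 16384 genes, 8.82% lower and 9.55% higher on 44% fat. The means were lower on 44% fat in 15 of 20 strains for Mettl21e and in 16 of 20 for Mettl21c, with within-strain differences of -0.85 to 0.28 and -0.93 to 0.16. In the upper identifier range alone the differences were -0.03 and -0.38.

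The sexes were also fitted apart. In untreated females the diet difference was -0.28 ± 0.06 (SE) for Mettl21e with an edgeR adjusted p of 0.00014, and -0.07 ± 0.05 (SE) for Mettl21c with an adjusted p of 0.34. In untreated males it was -0.05 ± 0.07 (SE) for Mettl21e with an edgeR adjusted p of 0.75, and -0.30 ± 0.07 (SE) for Mettl21c with an adjusted p of 0.00074. The test of the difference between sexes did not pass for either gene (edgeR adjusted p of 0.49 and 0.51), so a sex-specific diet effect was not shown, and only 0.226% of genes passed that test. The test of diet against strain did not pass either (edgeR adjusted p of 0.50 for Mettl21e and 0.33 for Mettl21c, with 3.27% of genes passing). In animals given metformin, the diet differences were -0.14 ± 0.08 (SE, edgeR adjusted p of 0.26) and -0.09 ± 0.05 (SE, edgeR adjusted p of 0.29). There 10.5% of 16418 genes passed (5.73% lower and 4.81% higher), and the 95% intervals ran from -0.29 to 0.01 for Mettl21e and from -0.20 to 0.01 for Mettl21c.

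The identifier range was compared in untreated animals. At first sight Mettl21e was higher in the upper range, with 0.718, 13.1 and 40.9 CPM at the lowest, median and highest, against 0.405, 8.56 and 36.2 CPM in the lower range. Strains were spread unevenly over the ranges, and with strain, sex and diet in the model the upper range was lower by a log2 difference of -0.41 ± 0.09 (SE, edgeR adjusted p of 9.2e-05). The difference did not pass over all animals with treatment as a term (-0.10 ± 0.07 SE, edgeR adjusted p of 0.32) or in animals given metformin, where it was above 0 (0.18 ± 0.15 SE, edgeR adjusted p of 0.57). Mettl21c held 10.96, 25.8 and 103.3 CPM in the upper range and 8.26, 27.7 and 124 CPM in the lower. Its modelled difference was -0.08 ± 0.08 (SE, edgeR adjusted p of 0.54), with a 95% interval from -0.24 to 0.08. Range moved 20.3% of 16384 genes, 9.2% lower and 11.1% higher in the upper range.

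Other lists moved with the range as well. All 5 erythroid markers were higher in the upper range (median 0.66, against 0.01 over all genes), with summed levels of 65.7 to 1464 CPM (median 255) in the lower range and 106.5 to 1509 CPM (median 308) in the upper. Of 6 skeletal muscle markers 3 were lower and 0 higher, with summed levels of 52035 to 142502 CPM (median 105272) and 51778 to 143585 CPM (median 89741). Titin (Ttn) had the highest median of the 6, 64193 CPM over all libraries (3782 to 128463), and so weighs most in that sum. Hepatocyte markers had summed levels of 0 to 5974 CPM (median 1.99) and 0.387 to 3509 CPM (median 8.37), and 0 of 6 passed the test by edgeR or voom (5 and 1 had an unadjusted p under 0.05). In the list of denervation and neuromuscular junction genes 10 of 16 were higher, with a median of 0.24. Over all genes 11.1% were higher and 9.2% lower in the upper range. Their part in the Mettl21e difference was not tested.

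The metformin difference is the contrast from which Mettl21e was chosen. In females, Mettl21e was 0.736, 13.9 and 40.9 CPM untreated and 0.679, 8.96 and 32.1 CPM with metformin at the lowest, median and highest. In males it was 0.405, 6.34 and 21.2 CPM untreated and 0.308, 4.10 and 21.4 CPM with metformin. The groups overlapped over almost their whole range in both sexes. The modelled log2 difference of Mettl21e over all animals was -0.53 ± 0.05 (SE), or -30.6%. For Mettl21c it was -0.11 ± 0.04 (SE), with 8.26, 27.5 and 124 CPM in untreated animals and 8.94, 26.1 and 90.4 CPM with metformin. Of 17740 genes, 16.2% passed the test of metformin, 9.21% lower and 7.01% higher.

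Some genes of the lists differed with metformin too, where 9.21% of all genes were lower and 7.01% higher. Of the 16 denervation and neuromuscular junction genes 7 were higher, with a median log2 difference of 0.07 against -0.0023 over all genes. Their summed level ran from 258 to 1159 CPM (median 604) untreated and from 386 to 2266 CPM (median 621) with metformin. Of 4 fibroblast markers 2 were lower (median -0.15), with summed levels of 139 to 2906 CPM (median 534) untreated and 275 to 1093 CPM (median 472) with metformin. Of 6 adipocyte markers 2 were lower (median -0.16), with summed levels of 8.06 to 492.9 CPM (median 89.04) and 19.2 to 798 CPM (median 78.4). Of 5 Schwann cell markers 2 were lower (median -0.06). Of 6 skeletal muscle markers 2 were lower, with a median of -0.01, near that over all genes. With the adipocyte sum in the model the metformin difference of Mettl21e was -0.52, and beyond that fit the part of these lists in it was not tested.

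Mean Mettl21e was lower with metformin in 20 of 20 strains, by log2 differences of -1.10 to -0.21 with a median of -0.48. These strain differences, and those of Mettl21c, pool both identifier ranges, which are read apart below. The strains with the widest gaps were (CC043/GeniUncJ x CC011/UncJ)F1 and (CC012/GeniUncJ x CC002/UncJ)F1. In the latter, untreated animals held 0.483, 2.45 and 6.93 CPM and treated animals 0.308, 1.01 and 2.27 CPM, with overlap. For Mettl21c the mean was lower with metformin in 13 of 20 strains, from -0.43 to 0.32 with a median of -0.07.

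**Figure D3:**
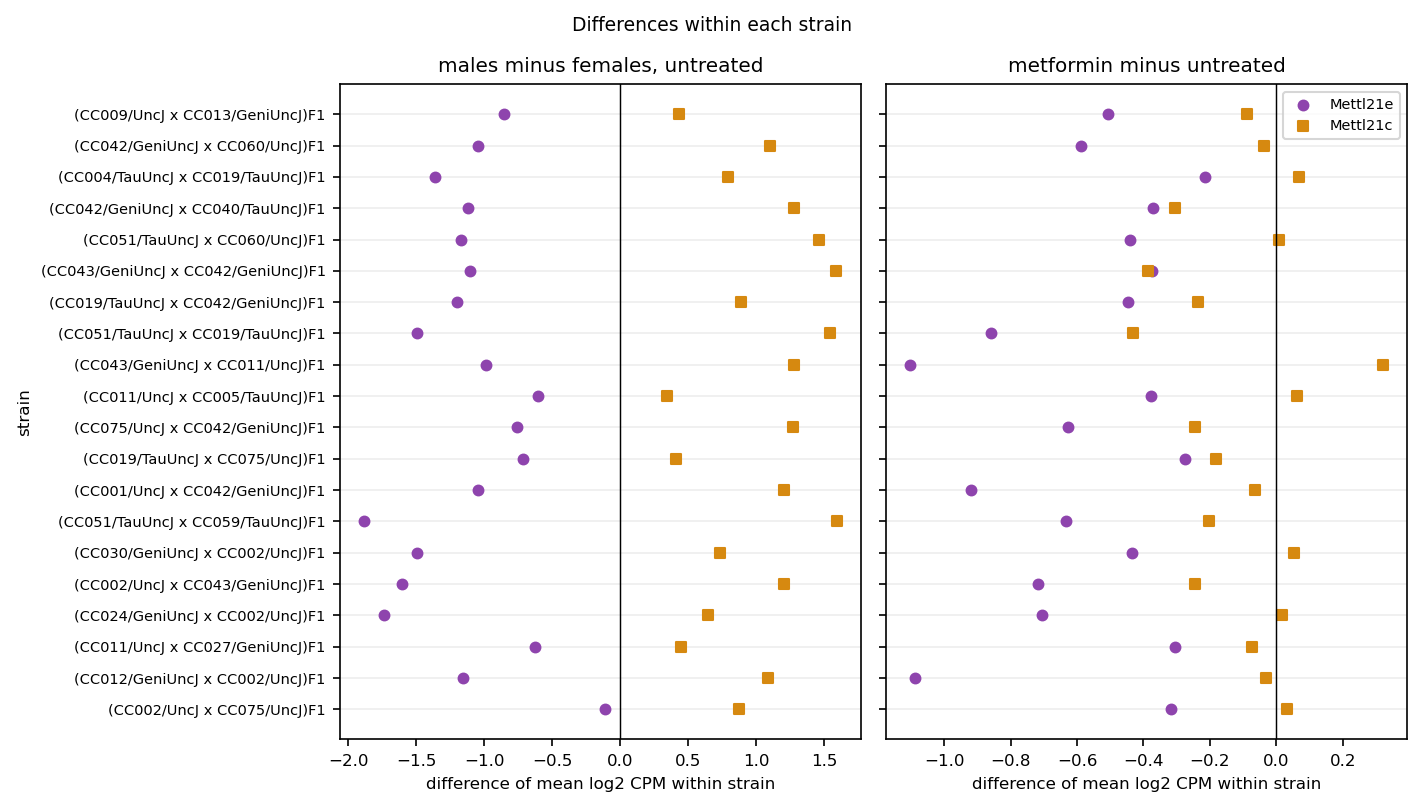
Difference of mean log2 CPM within each of 20 strains, males minus females in untreated animals on the left and metformin minus untreated on the right. Both identifier ranges are pooled. Purple circles are Mettl21e and orange squares Mettl21c, and the vertical line is no difference. Sex separates the genes to opposite sides of the line in 20 of 20 strains, and with metformin Mettl21e lies left of the line in 20 strains and Mettl21c in 13.

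The metformin difference of Mettl21e was also read within each identifier range. In the lower range the modelled difference was -0.67 ± 0.06 (SE), and the mean was lower in 15 of 15 strains with at least 3 animals in each arm (median -0.71). In the upper range it was -0.17 ± 0.08 (SE), and the mean was lower in 4 of 6 strains (median -0.17). The modelled gap between these differences was 0.52 ± 0.10 (SE), which was given no test because the contrast chose the gene. For Mettl21c the lower and upper ranges gave -0.11 ± 0.05 and -0.03 ± 0.07 (SE), and the interaction was 0.04 ± 0.09 (SE, edgeR adjusted p of 0.92), with 1.02% of genes passing.

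For Mettl21c, the metformin difference over all animals varied with sex by edgeR. Females held 8.26, 21.1 and 38.6 CPM untreated and 8.94, 21.7 and 37.5 CPM with metformin, a modelled difference of 0.03 ± 0.04 (SE). Males held 13.3, 41.7 and 124 CPM untreated and 12.4, 36.3 and 90.4 CPM with metformin, a difference of -0.26 ± 0.06 (SE). The interaction was -0.28 ± 0.07 (SE, edgeR adjusted p of 0.025), and with limma voom -0.23 (adjusted p of 0.070), where 1.87% of genes passed in edgeR. The model held no term of sex with identifier range, so a range difference that varies with sex stays in this interaction. With both identifier ranges pooled, the mean was lower with metformin in males of 15 of 20 strains and in females of 10 of 20. For Mettl21e the sexes gave -0.55 ± 0.06 in females and -0.49 ± 0.07 in males (SE), a gap of 0.09 ± 0.09 (SE) that was given no test. The interaction of metformin with diet was 0.10 ± 0.08 for Mettl21c (SE, edgeR adjusted p of 0.81), with 0.00564% of genes passing, and the value for Mettl21e was 0.03 ± 0.09 (SE).

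Untreated animals in both ranges were found in numbers (at least 10 in each) in 4 strains, whose metformin animals were all in the upper range. There 3 sets of animals could be set side by side. In (CC019/TauUncJ x CC075/UncJ)F1, Mettl21e was 12.9 ± 4.67 CPM (SD, n = 12) in untreated animals of the lower range, 7.43 ± 2.47 CPM (SD, n = 12) in those of the upper range and 8.03 ± 2.60 CPM (SD, n = 12) with metformin in the upper range. In (CC051/TauUncJ x CC060/UncJ)F1 the levels were 16.7 ± 5.48, 12.9 ± 6.81 and 11.2 ± 5.78 CPM (SD, n = 12 each). In (CC019/TauUncJ x CC042/GeniUncJ)F1 the levels were 15.7 ± 7.55 (SD, n = 13), 12.0 ± 5.83 (SD, n = 11) and 10.2 ± 4.43 CPM (SD, n = 12). In (CC042/GeniUncJ x CC060/UncJ)F1 they were 23.1 ± 9.76 (SD, n = 12), 18.2 ± 7.25 (SD, n = 10) and 14.1 ± 6.46 CPM (SD, n = 11). The untreated mean was lower in the upper range in 4 of 4 strains, and within the upper range the metformin mean was lower than the untreated mean in 3 of 4. The 3 sets overlapped in each strain.

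Over the 4 strains, untreated Mettl21e was lower in the upper range by -0.55 ± 0.09 (SE, edgeR adjusted p of 2.2e-06), and lower in 4 of 4 strains, by -0.78 to -0.42. There 12.9% of 17575 genes passed (5.72% lower and 7.21% higher). The metformin animals of the upper range differed from the untreated animals of that range by -0.10 ± 0.09 (SE) at Mettl21e by edgeR and by -0.20 ± 0.08 (SE) by limma voom, as a description. By either tool 0 genes passed there (0%), and 739 by edgeR and 730 by voom had an unadjusted p under 0.05. The edgeR 95% interval ran from -0.27 to 0.08. By sex the edgeR difference was -0.28 in females and 0.13 in males. Mettl21c was 43.4 ± 15.1, 31.2 ± 14.3 and 31.5 ± 12.2 CPM (SD, n = 13, 11 and 12) in the same 3 sets of (CC019/TauUncJ x CC042/GeniUncJ)F1, and 24.05 ± 9.90, 25.8 ± 14.9 and 21.3 ± 8.33 CPM (SD, n = 12 each) in (CC019/TauUncJ x CC075/UncJ)F1. The order of the sets thus differed between these strains, with overlap. Over the 4 strains, the Mettl21c values were -0.20 ± 0.09 (SE, edgeR adjusted p of 0.14) between ranges and -0.04 ± 0.09 (SE) with metformin. By sex, its metformin difference within the upper range was -0.036 in females and -0.037 in males. Its untreated range difference was -0.015 in females and -0.34 in males (edgeR adjusted p of 0.94 and 0.16). Without (CC019/TauUncJ x CC075/UncJ)F1 the range difference of Mettl21c was -0.27 with an edgeR adjusted p of 0.037. What besides the identifier differed between the ranges is not given by the labels, and age, which could differ between untreated animals, cannot be told apart from it.

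**Figure D4:**
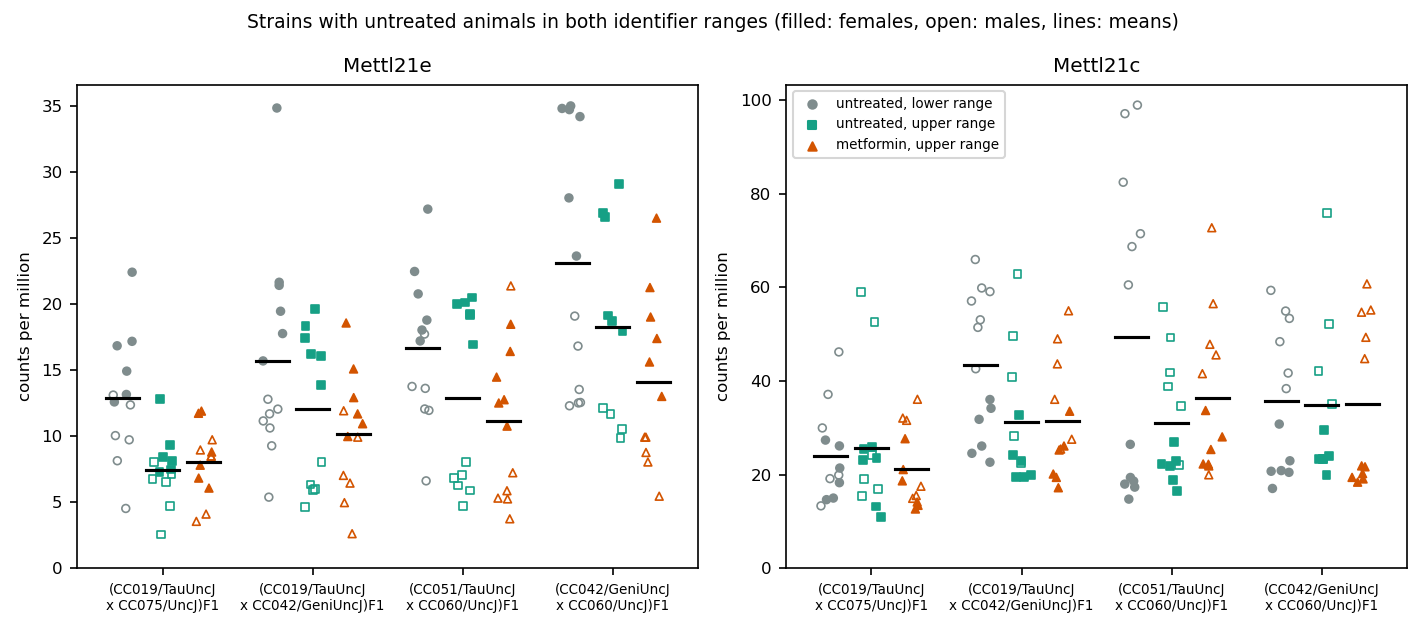
Level of Mettl21e (left) and Mettl21c (right) in CPM in the 4 strains with untreated animals in both identifier ranges. Gray circles are untreated animals of the lower range, green squares untreated animals of the upper range and orange triangles animals given metformin in the upper range, filled for females and open for males, with lines at the means. For Mettl21e the gray mean is the highest in each strain, such as 12.9 against 7.43 and 8.03 CPM in (CC019/TauUncJ x CC075/UncJ)F1.

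The levels of the genes were then followed from animal to animal. After strain, sex, diet, treatment and identifier range were taken out of log2 CPM, Mettl21e and Mettl21c went together weakly over all animals, with Pearson's r of 0.14 (permutation p of 0.00013) and Spearman's rho of 0.10 (permutation p of 0.0060). Without the 2 animals farthest from the Mettl21e median r was 0.10. Unadjusted levels, which hold the sex and strain differences, gave r of -0.09. This is a description, since unadjusted animals of the same strain and sex are not independent. In the lower range r was 0.18 (permutation p of 1e-05) and in the upper range -0.06 (permutation p of 0.45). Males alone gave 0.33 (permutation p of 1e-05, the smallest that 100000 orders can give) and females alone 0.08 (permutation p of 0.11), a split made after the data were seen. Within strains r was above 0 in 17 and below 0 in 3, from -0.27 to 0.56.

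The genes most like each member were found among 10133 genes by Pearson's r over these animals, which share a library preparation and sequencing depth within an animal. From the 5th to the 95th percentile, these genes had r of -0.16 to 0.20 with Mettl21e and -0.20 to 0.24 with Mettl21c. Highest with Mettl21e were Fkbp5 (0.53), an immunophilin that binds the glucocorticoid receptor complex, Klf13 (0.49), a transcription factor, Tecpr2 (0.47) and Glul (0.46), glutamine synthetase. They were followed by Car14, Ankrd9, Rab7, Plin3, Prickle3 and Fibin, down to 0.42. Each of the 10 had r above 0 in at least 18 of 20 strains. In the lower range alone their r ran from 0.43 to 0.54, and in the upper range from 0.28 to 0.48. With metformin 9 of them were lower (9.21% of all genes were), and in the upper identifier range 5 were lower in untreated animals (9.2% of all genes were). Since Mettl21e was chosen for its own fall with metformin in these libraries, the metformin count is not independent of that choice. Treatment and range were removed as separate terms, so a metformin difference that varies between ranges stays in r.

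Lowest with Mettl21e was Cadm1 (-0.36), a cell adhesion protein, followed by Rfx5, Gprc5b, Abcc1, Acsl6, Ctdsp2, Anxa7, Cacng1, Rasa4 and Dennd2c (-0.32). Of these Acsl6 is an acyl-CoA synthetase and Cacng1 a subunit of the muscle calcium channel. All 10 were higher with metformin, against 7.01% of all genes, and 8 were higher in males, against 29.5%. The metformin count carries the same limit as that of the highest genes. The range of their r in the upper identifier range, -0.37 to -0.08, was wider than in the lower range, -0.37 to -0.30.

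Other genes stood beside Mettl21c. Highest were Gadl1 (0.52), a decarboxylase of acidic amino acids, Arhgap10, Smox (0.51), which is spermine oxidase, Sra1, Amd1 (0.49), which is S-adenosylmethionine decarboxylase, and Myl1 (0.49), a light chain of fast myosin. Then came Hacd1, Fam213b, Kcnf1 and Odc1 (0.46), the last being ornithine decarboxylase. Of the 10, 9 were higher in males (29.5% of all genes were), by log2 differences of 2.69 for Amd1, 2.09 for Smox and 1.52 for Odc1. Sex had been taken out of the levels by its label before r was computed. Sex and strain were removed as separate terms, so a sex difference that varies between strains stays in r. With r computed in each strain apart, sex again removed, each of the 10 was above 0 in at least 18 of 20 strains. The 15 libraries whose Xist level went against the label were kept, and r without them was not computed. On 44% fat 9 of the 10 were lower, against 8.82% of all genes. Lowest with Mettl21c were Sept11 (-0.41), Gbe1, the glycogen branching enzyme, Cyld, Ahnak2, Ppfibp1, Ptpn14, Zfp318, Cds2, Egf and Smarcc2 (-0.36), all 10 of them lower in males, against 35.7% of all genes.

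**Figure D5:**
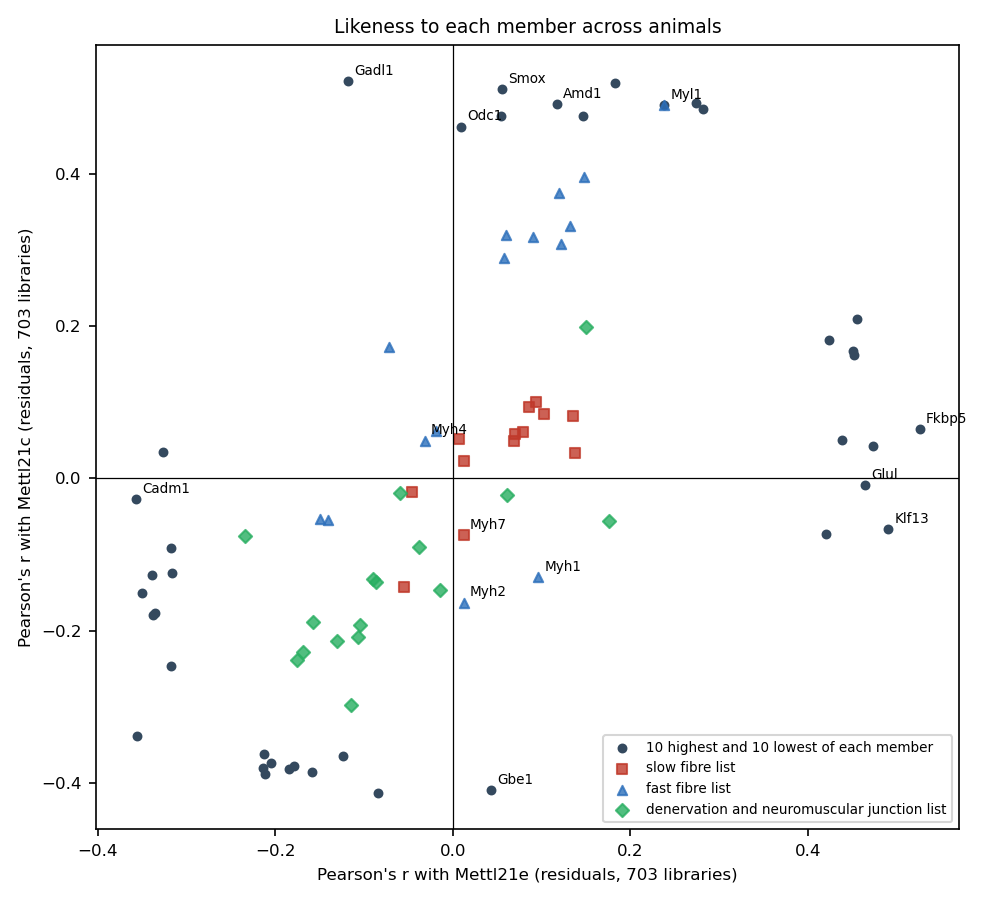
Pearson's r of each gene with Mettl21e (horizontal) and with Mettl21c (vertical) over all animals, after strain, sex, diet, treatment and identifier range were removed. Dark points are the 10 highest and 10 lowest genes of each member, red squares slow-fibre genes, blue triangles fast-fibre genes and green diamonds denervation and neuromuscular junction genes. The slow-fibre genes gather near 0 on both axes (medians 0.07 and 0.05), and the fast-fibre genes spread upward (median r of 0.29 with Mettl21c).

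Fibre-type genes were asked for next, since limb muscle is a mix of slow oxidative and fast glycolytic fibres, each with its own myosin. Each member's log2 CPM was added as a term to the model of all animals, beside the other terms. In these fits 28.4% of 17739 genes passed for Mettl21e (14.2% rising and 14.2% falling with it) and 42% for Mettl21c (20.6% and 21.4%). The adult myosin heavy chains followed neither gene closely. Myh7 of slow fibres had r of 0.01 with Mettl21e and -0.08 with Mettl21c. Myh2 of type IIa fibres had r of 0.01 and -0.16, Myh1 of type IIx 0.10 and -0.13, and Myh4 of type IIb -0.03 and 0.05. By sex, Myh7 was lower in males by a log2 difference of -0.84, Myh2 by -0.25 and Myh1 by -0.17, while Myh4 was higher by 0.10.

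Of 13 slow-fibre genes, 5 rose with Mettl21e and 0 fell, with a median r of 0.07. The highest was Atp2a2 (0.14), the slow calcium pump, and the lowest Myh7b (-0.06). With Mettl21c, 3 slow-fibre genes rose and 1 fell, with a median r of 0.05. Of 15 fast-fibre genes, 6 rose and 2 fell with Mettl21e, with a median r of 0.06, from Mylk2 (-0.15), myosin light chain kinase, to Myl1 (0.24). With Mettl21c, 9 fast-fibre genes rose and 2 fell, with a median r of 0.29. Those that rose include Myl1 (0.49), Mylpf (0.40), the fast regulatory light chain, and Pvalb (0.37), the calcium buffer parvalbumin, and those that fell were the myosins Myh2 and Myh1. Over all genes the median r was -0.01 with Mettl21e and -0.02 with Mettl21c. Of all genes, 14.2% rose and 14.2% fell with Mettl21e, and 20.6% rose and 21.4% fell with Mettl21c.

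Among 23 regulators of fibre type, 3 rose and 4 fell with Mettl21e, where 14.2% of all genes rose and 14.2% fell. The highest was Ppargc1a (0.31), the coactivator of mitochondrial genes, and the lowest its relative Ppargc1b (-0.20). With Mettl21c, 7 regulators rose and 7 fell, against 20.6% and 21.4% of all genes, with a median r of 0.01.

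In the list of denervation and neuromuscular junction genes, 2 of 16 rose and 7 fell with Mettl21e (median r of -0.10), and 1 rose and 12 fell with Mettl21c (median r of -0.14). The shares over all genes were 14.2% rising and 14.2% falling with Mettl21e, and 20.6% and 21.4% with Mettl21c. The lowest with Mettl21e was Chrna1 (-0.23), the alpha subunit of the muscle acetylcholine receptor, and the highest Myog (0.18), the transcription factor myogenin. Runx1, a transcription factor induced in denervated muscle, had r of -0.17 with Mettl21e and -0.23 with Mettl21c. Musk, the receptor kinase of the junction, was the gene that rose with Mettl21c (0.20), and it also rose with Mettl21e (0.15).

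The other methyltransferases of the same structural family were read next. Of 7 measured relatives 0 rose and 0 fell with Mettl21e in edgeR (3 had an unadjusted p under 0.05), from Eef2kmt (r of -0.08) to Mettl20 (0.09), the enzyme of electron transfer flavoprotein. With Mettl21c, Mettl22 (0.27) and Eef2kmt (0.21), the enzyme that methylates elongation factor 2, rose and Mettl21a (-0.12), which acts on HSP70 chaperones, fell. Of all genes, 20.6% rose and 21.4% fell with Mettl21c. The sex differences of the relatives were small beside those of the 2 members. Mettl21a differed by -0.16 (edgeR adjusted p of 3.1e-15), and Vcpkmt, the enzyme of VCP, by 0.00 (edgeR adjusted p of 0.98).

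Of 12 measured proteins known as substrates in this family, 5 rose and 2 fell with Mettl21e (14.2% of all genes did each), with a median r of 0.06. They ran from Eef2 (-0.17), elongation factor 2, to Hspa9 (0.23), the mitochondrial HSP70. With Mettl21c, 7 rose and 1 fell, against 20.6% and 21.4% of all genes, with a median r of 0.11. Vcp had r of -0.05 with Mettl21e and -0.03 with Mettl21c, and Aars, alanyl-tRNA synthetase, -0.10 and 0.10. Hspa8, the constitutive HSP70 of the cytosol, rose with both (0.22 and 0.19). These are transcript levels, and methylation of the proteins was not measured.

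The neighbours of the genes on chromosome 1 were read for comparison. Of the genes in the count table that start within 500 kb of either member, 15 with the members themselves, the nearest to Mettl21e in r was its antisense partner Gm15833 (0.46), which was lower in the upper identifier range by -0.83 and in males by -0.41. Gm15833 and Mettl21e share a stretch of genome, so shared reads cannot be told apart. Ercc5, a DNA repair nuclease between the members, had r of 0.38 with Mettl21e and 0.07 with Mettl21c. Across the 20 strain means, Uxs1 (0.73), which makes UDP-xylose, and Bivm (0.70) had the highest r with Mettl21e, while from animal to animal they had 0.12 and -0.02. Strains that share a parental line share this stretch of chromosome, so strain means of neighbouring genes are not independent.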

How the data were processed

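Polyadenylated RNA of gastrocnemius was sequenced in pairs of 100-bp reads, aiming at 30 M pairs. The authors assigned reads to the transcripts of the founder genomes by expectation maximisation, and the deposited values are estimated counts per gene, given as whole numbers and used as they are. Positions are on GRCm38, per the submitters' processing notes. A second table deposited by the authors, on a log2-like scale after a variance-stabilising transformation with DESeq2, served as an alternative.

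Counts were tested with edgeR 4.0.16 (TMM, quasi-likelihood F test) in R 4.3.3, with strain, sex, diet and identifier range as terms, and treatment where all animals entered. P-values were adjusted by Benjamini-Hochberg over all genes tested, with a threshold of 0.05. The dispersion trend was estimated once in each main model and used again in its edgeR alternatives. The edgeR fits of the 4 strains with untreated animals in both ranges estimated their own. A standard error is the fitted log2 difference over the square root of F. Levels are CPM on TMM-scaled totals, with a prior count of 2 on the log2 scale. The alternatives were limma 3.58.1 (voom), the full model of DESeq2 1.42.0 and edgeR with median-of-ratios size factors. Permutation tests drew 100000 orders and were two-sided. Scripts were tested on simulated data.

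The members and the gene lists were chosen with earlier results of these data known. Genes named besides the members are the 10 with the highest and the 10 with the lowest r, among genes whose mean log2 CPM reached 1 and whose symbol is no clone name, the 4 myosins, the ends of each list by r with Mettl21e, and neighbours. Others (Mylpf, Pvalb, Musk, Runx1, Mettl22, Mettl21a, Vcpkmt, Vcp, Aars and Hspa8) were named after their values were seen. The labels give 1 replicate number to all animals, so each animal is a replicate of its group.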

Additional observations from a re-analysis of the deposited data

Results flagged for a closer look

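The metformin difference of Mettl21c differed between the sexes, with an interaction of -0.28 on the log2 scale, from 0.03 in females to -0.26 in males. This interaction passed the edgeR threshold over all genes. By limma voom it was -0.23 and did not pass. The model held no term of sex with identifier range. Within the upper range of the 4 strains, the metformin difference was -0.036 in females and -0.037 in males. No library of the reported groups with 4 to 10 animals lay far from the others. In the finer groups of strain, sex, diet and treatment, 11 of 156 held an animal far from the rest by Dixon's 95% value (7 for Mettl21e and 4 for Mettl21c), or 7.05%. Chance gives about 1 in 20 only for normally distributed values, and CPM was used here without a log.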

How the results depend on the processing

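Of 180 alternatives over 25 results, 165 kept the direction and, for tested results, the side of the threshold. They were other tools and scalings, filters, ranges, sexes and libraries left out. Metformin differences, and all metformin interactions of Mettl21e, were not held to the threshold. These counted as kept if the sign held and the value moved by less than the SD of the strain differences with metformin. The metformin difference of Mettl21e was -0.17 in the upper range alone, and that of Mettl21c was 0.028 in females alone. The diet difference of Mettl21e did not pass in the upper range (-0.032), in males (-0.053) or in animals given metformin (-0.14), and that of Mettl21c did not pass in females (-0.075) or in animals given metformin (-0.093). The range difference of Mettl21e was 0.18 in animals given metformin and -0.10 over all animals with treatment as a term, neither of which passed, and that of Mettl21c was 0.049 in animals given metformin. The interaction of metformin with sex at Mettl21c was -0.23 by limma voom and did not pass. In the 4 strains, metformin against untreated in the upper range was 0.13 at Mettl21e in males alone. The correlation between the genes was -0.060 in the upper range, -0.089 with no adjustment and 0.085 in females alone, the last chosen after seeing the data. The cause of these changes was not tested.

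Strains were left out 1 at a time with limma on log2 CPM, so these ranges need not hold the edgeR values of all strains, which lie outside them for Mettl21c by sex (1.08) and by metformin (-0.11). Over all strains limma voom gave 1.04 and -0.10 there. Mettl21e ran from -0.58 to -0.51 for metformin, -0.22 to -0.16 for diet, -1.16 to -1.07 for sex, -0.46 to -0.35 for range and 62.8 to 90.3 for the strain F. Mettl21c ran from -0.11 to -0.06, -0.23 to -0.18, 0.99 to 1.06, -0.15 to -0.04 and 8.86 to 11.2. In the 4 strains, the range difference ran from -0.58 to -0.50 for Mettl21e and from -0.28 to -0.093 for Mettl21c, which passed without (CC019/TauUncJ x CC075/UncJ)F1 alone. The metformin difference in the upper range ran from -0.17 to -0.03 for Mettl21e and from -0.12 to 0.039 for Mettl21c, above 0 without that same strain.

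The number of genes called for metformin was 2877 over all animals, 1 in the upper range, 1236 in females and 1603 in males. For diet it was 3009, against 299 in the upper range, 1494 in females, 1744 in males and 1731 in animals given metformin. For sex it was 10687, against 4021 in the upper range, and for strain 15263 against 8619. With genes at 5 CPM or more alone these were 6403 and 8527, where fewer genes were tested. For identifier range it was 3321, against 924 in males and 1137 in animals given metformin.

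No paired analysis was possible because all animals carry the same replicate number in the labels. The lowest Mettl21e count was 15, so the smallest levels carry the most counting error, and the upper range holds 159 animals, concentrated in a few strains. The age of the untreated animals and the meaning of the identifier ranges are not given by the labels.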
